A study of Mus musculus with 6 samples.

Results

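The levels of 9 genes linked to plasmacytoid dendritic cells (pDCs) were examined among the 24965 genes of the expression table. They were Siglech, Tcf4, Bst2, Ccr9, Runx2, Klk1, Pacsin1, Lair1 and Spib. The 9 were a fixed list of symbols, chosen with earlier results of these data known. Each was found by its Ensembl identifier through the mouse annotation GENCODE M21. Bone marrow cells of WT or Hemgn-/- mice, both carrying the CD45.2 allele, were transplanted into CD45.1+ recipients irradiated with 9 Gy, and donor cells were recovered after 6 h as 3 libraries per genotype. Hemgn encodes hemogen, a nuclear regulator of blood cell development, and was disrupted in every cell of the donor by zinc finger nucleases on a C57BL/6 background. WT donors were littermates, donors were young adults of both sexes, and the recipients of both groups carried an intact Hemgn. The sample labels describe the sorted cells as lineage negative and Sca-1+, while the series design adds c-Kit to the gate. The study's methods call the 3 replicates of a group biological, and whether each came from a recipient of its own is not given in the sources used here.

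pDCs are rare dendritic cells of marrow, blood and lymphoid tissue that sense viral nucleic acids in endosomes and release large amounts of type I interferon. The E protein Tcf4 (E2-2) sets and keeps their identity, with Spib, Runx2 and Irf8 as further regulators. Their surface carries Siglec-H, BST2 (the antigen PDCA-1 in mice) and, when mature, the gut-homing receptor CCR9. Most of these genes are shared with other cells: Spib, Tcf4 and Bst2 are also transcribed in B cells, Bst2 in almost any cell that has met interferon, and Lair1 in many leukocytes.

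Several features of the libraries bear on every value below. Hemgn ranged from 2.96 to 5.64 FPKM (fragments per kilobase of exon, scaled to library depth) in WT and from 0.755 to 1.60 in Hemgn-/- libraries, and fell by 1.37 on the log2(FPKM + 1) scale (limma, adjusted p = 0.0114). The transcripts with the highest mean level were those of mature blood cells, led by Ngp at 36004 FPKM, Lyz2 at 21421 and S100a9 at 8546 (neutrophil and myeloid proteins). Kit lay between 6.14 and 7.24 in WT and between 5.50 and 5.90 in Hemgn-/- libraries. Ly6a (Sca-1) lay between 8.27 and 10.2 in WT and between 11.4 and 17.3 in Hemgn-/- libraries. Neither gene overlapped between the groups, and neither was called (limma, adjusted p of 0.398 for Kit and 0.0642 for Ly6a). The summed FPKM of 12 neutrophil markers was 76540 to 82539 in WT and 50805 to 56264 in Hemgn-/- libraries. More of this sum came from Ngp than from any other marker, at 43176 to 46692 in WT and 26488 to 27961 in Hemgn-/- libraries. The summed FPKM of 15 B cell markers was 2413 to 2544 in WT and 2949 to 3162 in Hemgn-/- libraries. The libraries therefore held abundant RNA of lineages that a lineage-negative gate is meant to remove, and their part in the results was not tested. In RNA of a mixed cell population, fewer cells of a type and less RNA per cell cannot be told apart. The recovered totals were 23668014 to 28897357 fragments per library, so that 1 fragment on 1 kb of exon was worth 0.0346 to 0.0423 FPKM.

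All 9 genes had a value, and all 9 passed the filter of more than 1 FPKM in at least 1 library, Ccr9 only through Hemgn-/- libraries. Siglech, Spib, Klk1 and Pacsin1 were higher in Hemgn-/- than in WT donor cells at an adjusted p under 0.05 (limma on log2(FPKM + 1), Benjamini-Hochberg over 13739 genes), and none of the 9 was lower. Of all genes tested, 4.37% were called higher and 2.09% lower, 6.46% in all. The other 5 genes had positive log2 differences that missed the threshold, and so had 63% of all genes. The median log2 difference was 0.40 over the 9 genes and 0.087 over all genes tested. At the thresholds stated in the study's methods, an unadjusted p under 0.05 and a change of 1.5-fold, the same 4 genes were counted, against 4.1% of all genes in that direction and 2.74% in the other. In 7 of the 9 the Hemgn-/- libraries all lay above the WT libraries, as they did for 19.2% of all genes, while the reverse order held for none of the 9 and for 8.18% of all genes.

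The number of genes called over the whole table depended on the scaling. As deposited, 600 genes were higher and 287 lower. After median-ratio scaling 347 were higher and 384 lower, after quantile normalization 368 and 346, and after setting all libraries to the same FPKM total 1062 and 238. All 9 pDC genes kept a positive difference under each of the 3 scalings, but Pacsin1 lost its call after median-ratio scaling (limma, adjusted p = 0.0567) and quantile normalization (limma, adjusted p = 0.059), which left 3 genes called.

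**Figure D1:**
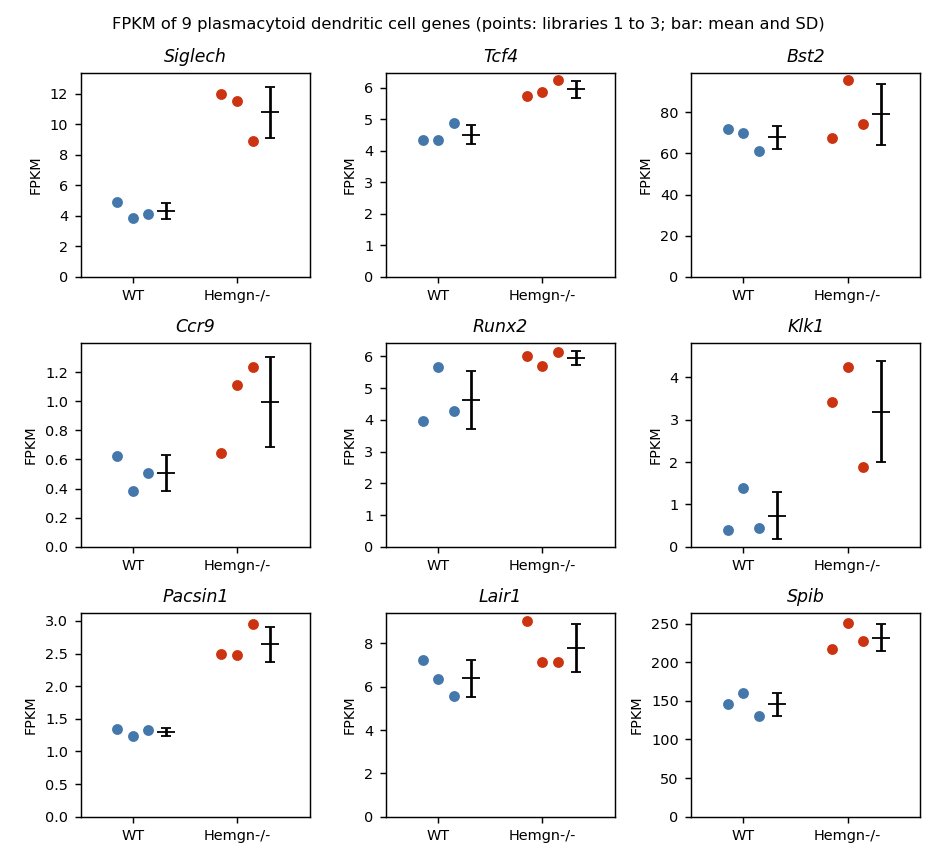
FPKM of the 9 pDC genes in each library, on axes that start at 0. Points are WT libraries (blue) and Hemgn-/- libraries (red), and the bars give the mean and SD of 3 libraries. For Siglech, Spib, Klk1 and Pacsin1 the groups are separate, whereas for Bst2 and Lair1 they overlap.

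Sequence upstream of the pDC genes was read from RefSeq on GRCm38.p6, as windows from 250 bases before to 50 bases after the start of the gene. The windows of 8 of the 9 genes were searched, and Tcf4 was left out of the search. The windows of Siglech and Klk1, the genes with the largest log2 differences, are shown with the letters CACCTG in capitals (CAGGTG where read on the opposite strand), an E-box of the kind that E proteins such as E2-2 bind. The window of Bst2, a gene known to respond to interferon, is shown with 2 overlapping cores of the interferon-stimulated response element (ISRE), each GAAA, any 2 bases and GAAA, in capitals. All are printed 5′ to 3′ on the strand of the gene, from the plus strand at chr7:55767934-55768233 for Siglech and chr7:44225110-44225409 for Klk1 and from the minus strand at chr8:71537423-71537722 for Bst2.
Siglech: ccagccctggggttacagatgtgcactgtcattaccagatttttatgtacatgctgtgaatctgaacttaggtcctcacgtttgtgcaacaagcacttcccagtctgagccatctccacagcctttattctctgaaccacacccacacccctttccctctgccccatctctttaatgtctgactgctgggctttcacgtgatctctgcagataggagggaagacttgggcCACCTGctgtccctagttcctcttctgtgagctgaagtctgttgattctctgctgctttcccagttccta
Klk1: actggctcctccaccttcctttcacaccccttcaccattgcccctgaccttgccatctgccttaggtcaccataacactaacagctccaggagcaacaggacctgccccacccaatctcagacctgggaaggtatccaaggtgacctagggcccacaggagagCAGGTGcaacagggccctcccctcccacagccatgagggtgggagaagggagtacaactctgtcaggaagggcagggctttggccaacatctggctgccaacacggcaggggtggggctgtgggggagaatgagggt
Bst2: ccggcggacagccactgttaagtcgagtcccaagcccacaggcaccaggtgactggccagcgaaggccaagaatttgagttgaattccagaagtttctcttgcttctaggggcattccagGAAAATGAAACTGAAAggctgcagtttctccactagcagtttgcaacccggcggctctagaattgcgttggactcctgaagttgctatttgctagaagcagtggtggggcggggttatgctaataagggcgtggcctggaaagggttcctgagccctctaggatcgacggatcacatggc

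On both strands, CACCTG was found in the windows of Siglech, Klk1, Bst2 and Ccr9, 4 of 8, and in 20.2% of all 32851 windows. The ISRE core was found in the window of Bst2 alone, at 130 to 121 and at 124 to 115 bases before the start, and in 3.44% of all windows. TTCNNNGAA, bound by STAT factors, was in the windows of Siglech and Bst2 and in 8.3% of all windows. TGTGGT, the core bound by RUNX factors, was in those of Siglech, Pacsin1 and Runx2 and in 16.8% of all windows, and GAGGAAG, bound by Spi-B and PU.1, was in that of Lair1 and in 13.6%. In the Siglech window the TTCNNNGAA and TGTGGT matches share 1 base. These motifs were picked after the values were known, and a match describes the letters only.

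Siglec-H is a sialic acid-binding lectin that pairs with the adaptor DAP12 and is the surface protein most used to mark mouse pDCs. Siglech (ENSMUSG00000051504) lies on the plus strand at chr7:55768178-55778925 of GRCm38. Its level was 4.90, 3.86 and 4.14 FPKM in the WT libraries and 11.98, 11.5 and 8.88 FPKM in the Hemgn-/- libraries. Each Hemgn-/- library lay above each WT library, and Hemgn-/- replicate 3 was the lowest of its group. The mean rose from 4.30 ± 0.537 (SD, n = 3) to 10.8 ± 1.67 (SD, n = 3), which is 2.51 times. The log2 difference was 1.15 with a 95% interval of 0.83 to 1.47 (limma, adjusted p = 0.0028). These levels rested on 334 to 392 fragments per WT library and 868 to 1112 per Hemgn-/- library, and none of its exons overlapped another annotated gene.

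Spib encodes Spi-B, an Ets family transcription factor needed for normal pDC and B cell function. Spib (ENSMUSG00000008193, minus strand, chr7:44525993-44532071) was by far the highest of the 9, at 146, 160 and 130 FPKM in WT and 217, 251 and 227 FPKM in Hemgn-/- libraries. The groups did not overlap, and the mean rose from 145 ± 14.8 to 232 ± 17.8 FPKM (SD, n = 3 each), or 1.6 times. Its log2 difference was 0.67 with a 95% interval of 0.47 to 0.88 (limma, adjusted p = 0.00432). Spib ranked at place 201 of 24965 genes by mean FPKM and made up 60.6% to 67.7% of the summed FPKM of the 9 genes.

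Klk1 encodes tissue kallikrein, a secreted serine protease whose transcript is used as a mouse pDC marker. Klk1 (ENSMUSG00000063903, plus strand, chr7:44225360-44229618) was low, at 0.392, 1.38 and 0.435 FPKM in WT and 3.42, 4.26 and 1.90 FPKM in Hemgn-/- libraries. WT replicate 2 and Hemgn-/- replicate 3 came closest to each other, but the groups did not overlap. The mean was 0.735 ± 0.557 FPKM in WT and 3.19 ± 1.2 FPKM in Hemgn-/- libraries (SD, n = 3 each), a ratio of 4.34. The log2 difference of 1.27 had a 95% interval of 0.62 to 1.93 (limma, adjusted p = 0.035). Behind these levels stood 10, 38 and 13 fragments in WT and 101, 120 and 59 in Hemgn-/- libraries. The call was lost without WT replicate 1 (limma, adjusted p = 0.101), without WT replicate 3 (limma, adjusted p = 0.108), without Hemgn-/- replicate 1 (limma, adjusted p = 0.103) and without Hemgn-/- replicate 2 (limma, adjusted p = 0.121). Klk1 belongs to a family of near-identical kallikrein genes, so reads may have been split among copies. Of these, Klk1b11 and Klk1b27 were near 0 and 11 others were not analysed here.

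Pacsin1 encodes an adaptor of endocytosis and the actin skeleton, known from neurons and needed for the type I interferon response of pDCs. Pacsin1 (ENSMUSG00000040276, plus strand, chr17:27655509-27711482) stood at 1.35, 1.23 and 1.32 FPKM in WT and 2.50, 2.47 and 2.95 FPKM in Hemgn-/- libraries. The replicates were close together and the groups far apart, with means of 1.3 ± 0.0615 and 2.64 ± 0.267 FPKM (SD, n = 3 each) and a ratio of 2.03. Its log2 difference was 0.66 with a 95% interval of 0.32 to 1.0 (limma, adjusted p = 0.035). The call was lost when any 1 of the 6 libraries was left out, with an adjusted p of 0.0781 to 0.145 in limma, and under 2 of the 3 scalings, while the groups stayed apart in the values as deposited. Fragments of Pacsin1 were not recovered as whole numbers, so its call on recovered fragments (voom, adjusted p = 0.0106) rested on rounded values.

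Tcf4 encodes the basic helix-loop-helix factor E2-2, the factor that defines the pDC lineage. Tcf4 (ENSMUSG00000053477, plus strand, chr18:69343356-69689079) was at 4.33, 4.33 and 4.87 FPKM in WT and 5.75, 5.85 and 6.25 FPKM in Hemgn-/- libraries. The groups did not overlap and the ratio of means was 1.32, smaller than that of Siglech. The log2 difference of 0.34 had a 95% interval of 0.08 to 0.59 and missed the threshold (limma, adjusted p = 0.123). In voom, the weighted limma fit run on recovered fragments, it was 0.40 with an adjusted p of 0.0198. That was the only 1 of 15 alternative settings in which Tcf4 was called. Elsewhere its limma adjusted p was 0.0552 to 0.295.

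Runx2 encodes a Runt domain factor that is high in pDCs and is also the master regulator of bone-forming cells. Runx2 (ENSMUSG00000039153, minus strand, chr17:44495987-44814797) was at 3.96, 5.67 and 4.26 FPKM in WT and 6.02, 5.69 and 6.12 FPKM in Hemgn-/- libraries. The groups were separated only by the gap between 5.67 and 5.69 FPKM. A log2 difference of 0.31 was found with a standard error of 0.138 (limma, adjusted p = 0.236). Of its exonic bases, 519 are shared with the antisense gene Runx2os1, which was at 0.092 to 0.531 FPKM.

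Bst2, encoding tetherin, a membrane protein that holds budding virus on the cell surface, was the second most abundant of the 9 genes. Bst2 (ENSMUSG00000046718, minus strand, chr8:71534255-71537456) was at 72.0, 70.1 and 61.3 FPKM in WT and 67.3, 95.5 and 74.1 FPKM in Hemgn-/- libraries. The groups overlapped, and Hemgn-/- replicate 2 stood above the other 5 libraries. The log2 difference was 0.21 with a 95% interval of -0.09 to 0.5 (limma, adjusted p = 0.41), so a difference as large as the 0.67 of Spib lay outside the interval.

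Lair1 encodes an inhibitory receptor for collagen found on many leukocytes. Lair1 (ENSMUSG00000055541, minus strand, chr7:4003402-4063204) was at 7.24, 6.37 and 5.55 FPKM in WT and 9.04, 7.14 and 7.14 FPKM in Hemgn-/- libraries. The groups overlapped, since WT replicate 1 exceeded 2 of the Hemgn-/- libraries. The log2 difference was 0.25 with a 95% interval of -0.06 to 0.56 (limma, adjusted p = 0.342).

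Ccr9 encodes the receptor for the chemokine CCL25, which guides cells to the gut and thymus. Ccr9 (ENSMUSG00000029530, plus strand, chr9:123678439-123784330) was the lowest of the 9, at 0.626, 0.381 and 0.510 FPKM in WT and 0.646, 1.11 and 1.23 FPKM in Hemgn-/- libraries. Hemgn-/- replicate 1 lay just above the highest WT library, and the other two Hemgn-/- libraries were the only ones above 1 FPKM. The log2 difference was 0.40 with a 95% interval of -0.11 to 0.90 (limma, adjusted p = 0.349). Its annotated exons share 1932 bases with AC165425.1 on the opposite strand, 269 with Gm17200 and 22 with Slc6a20a, so part of these fragments may belong to other genes.

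**Figure D2:**
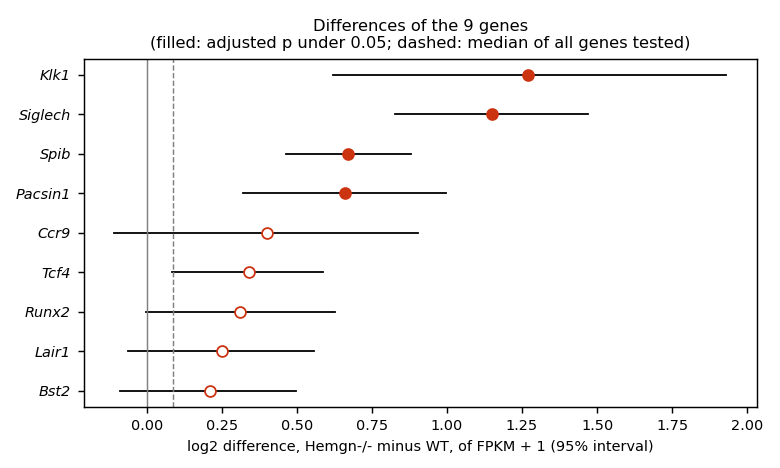
Log2 difference of FPKM + 1, Hemgn-/- minus WT, for the 9 genes with 95% intervals from limma. Filled points have an adjusted p under 0.05, and the dashed line is the median of all genes tested (0.087). Klk1 (1.27) and Siglech (1.15) lie farthest from 0, and the intervals of Bst2, Lair1, Runx2 and Ccr9 include 0.

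The levels of the 9 genes spanned a wide range in both groups. In WT libraries Spib came first, then Bst2, Lair1 at 6.39 ± 0.845, Runx2 at 4.63 ± 0.915, Tcf4 at 4.51 ± 0.311 and Siglech at 4.30 ± 0.537 FPKM (SD, n = 3 each), and the last 3 of these lay within each other's spread. In Hemgn-/- libraries Siglech followed Spib and Bst2, at 10.8 FPKM, ahead of Lair1 at 7.78 ± 1.1, Tcf4 at 5.95 ± 0.266 and Runx2 at 5.94 ± 0.227 FPKM (SD, n = 3 each). The summed FPKM of the 9 genes was 213 to 253 in WT and 323 to 385 in Hemgn-/- libraries. Without Spib and Bst2 the sum was 21.1 to 23.2 in WT and 34.5 to 39.3 in Hemgn-/- libraries. Spib was 29.8 to 41.4 times the level of Siglech in WT and 18.1 to 25.6 times in Hemgn-/- libraries, a ratio added after the values were seen and given as a description. No library led for all genes: Hemgn-/- replicate 1 was the highest for Siglech and Lair1, replicate 2 for Bst2, Klk1 and Spib, and replicate 3 for Tcf4, Ccr9, Runx2 and Pacsin1.

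A further 24 genes enriched in pDCs were examined, of which 20 passed the filter. None was called in either direction by limma at an adjusted p under 0.05, and their median log2 difference was 0.14. At an unadjusted p under 0.05 in limma, 3 of the 20 were higher (Klra17, Mctp2 and Lag3), as were 15% of all genes tested. In the other direction 1 was lower (Smim5), and voom on recovered fragments called 1 higher. Klra17, Mctp2, Lag3 and Smim5 are named only because they passed that unadjusted threshold. Lag3, an inhibitory receptor of pDCs and T cells, had a log2 difference of 0.68 (limma, adjusted p = 0.0746), and Smim5, a small membrane protein gene, had -0.43 (limma, adjusted p = 0.0725). Ly6d, which marks lymphoid progenitors of B cells and pDCs, was at 66.3 to 102 FPKM in WT and 74.8 to 96.1 FPKM in Hemgn-/- libraries, with a log2 difference of 0.06 (limma, adjusted p = 0.867). The summed FPKM of the list was 457 to 509 in WT and 448 to 503 in Hemgn-/- libraries, unlike the separate sums of the 9 genes. Most of this sum came from Plac8, Fcrla and Ly6d, with means over all libraries of 167, 98.0 and 82.9 FPKM. Plac8 and Fcrla had log2 differences of -0.04 and 0.01 (limma, adjusted p of 0.831 and 0.951). Of the 20 tested genes, 15 had a log2 difference above 0 and 5 below, beside 63% of all genes above 0.

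A list of 12 regulators of the pDC program, all tested, included the inhibitors Id2 and Id3. Of the 12, 3 were higher and none lower, against 4.37% and 2.09% of all genes tested. Their median log2 difference was 0.23. Irf8, required for dendritic cell development and also made in B cells and monocytes, was at 39.7, 39.4 and 38.5 FPKM in WT and 64.6, 68.1 and 67.4 FPKM in Hemgn-/- libraries. Its log2 difference was 0.75 (limma, adjusted p = 0.000657), with tight replicates in both groups. Mef2c, a MADS box factor of lymphoid and dendritic cells, rose by 0.48 (limma, adjusted p = 0.0187), and Id3, an inhibitor of E proteins, by 0.43 (limma, adjusted p = 0.0296). Under the 15 alternative settings the list had 1 to 4 higher genes, Irf8 being called in all 15, Mef2c in 10 and Id3 in 5. Id2, the inhibitor whose absence favours pDCs over conventional dendritic cells, was at 82.7 to 100 FPKM in WT and 87.6 to 92.9 in Hemgn-/- libraries, with a log2 difference of -0.06 (limma, adjusted p = 0.731). The other E proteins missed the threshold too: Tcf3 had -0.49 (limma, adjusted p = 0.195), where WT replicate 2 stood high at 43.1 FPKM, and Tcf12 had -0.06 (limma, adjusted p = 0.857).

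The route by which pDCs sense nucleic acids and make interferon was covered by 21 genes, of which 16 had values and 15 were tested. Of these 5 were higher and none lower, against 4.37% and 2.09% of all genes tested. Their median log2 difference was 0.29, against 0.087 over all genes tested. The count of higher genes ranged from 0 to 6 over the alternative settings and was 0 in limma without the trend and without Hemgn-/- replicate 3, and 1 after median-ratio scaling and without WT replicate 3. Irf5, which drives cytokine genes behind endosomal Toll-like receptors, was at 15.7 to 19.5 FPKM in WT and 25.6 to 33.2 FPKM in Hemgn-/- libraries, a log2 difference of 0.67 (limma, adjusted p = 0.0148). Myd88, the adaptor of these receptors, rose by 0.41, the protease Ctss by 0.36, the receptor chaperone Cnpy3 by 0.35 and the receptor transporter Unc93b1 by 0.29 (limma, adjusted p of 0.0191, 0.0205, 0.0219 and 0.0333). Tlr7, the receptor for single-stranded RNA, was at 5.80 to 6.95 FPKM in WT and 7.67 to 10.7 FPKM in Hemgn-/- libraries, a log2 difference of 0.55 that just missed the threshold (limma, adjusted p = 0.0595). Tlr9, the DNA receptor of pDCs and B cells, stayed under 1 FPKM, at 0.0337 to 0.156 in WT and 0.0398 to 0.373 in Hemgn-/- libraries. Irf7, the factor that switches on interferon genes, had a log2 difference of 0.30 (limma, adjusted p = 0.203). Genes of the type I interferons themselves were not analysed here.

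Relatives of the 9 genes by family or partner numbered 30, with 19 having values and 16 tested. Of the 16, 5 were higher and 1 lower (median log2 difference 0.24), against 4.37% and 2.09% of all genes tested. Spi1, encoding PU.1, the myeloid relative of Spi-B, was at 179, 335 and 220 FPKM in WT and 150, 115 and 91.8 FPKM in Hemgn-/- libraries. WT replicate 2 stood high. Spi1 fell by 1.01 on the log2 scale (limma, adjusted p = 0.0399), and the call was lost with no filter, without the trend and without WT replicate 2 or 3 or Hemgn-/- replicate 2 or 3, with an adjusted p of at most 0.151 in limma. The chemokine receptors Ccr2 and Ccr6 rose by 1.00 and 0.80 (limma, adjusted p of 0.0014 and 0.0343), and Siglecg, a B cell sialic acid receptor, rose by 0.49 (limma, adjusted p = 0.00643). Ccr2 was called under all 15 alternative settings, Siglecg under 14 and Ccr6 under 7. Runx1 had a log2 difference of 0.01 (limma, adjusted p = 0.972) and Pacsin2 one of -0.06 (limma, adjusted p = 0.833).

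**Figure D3:**
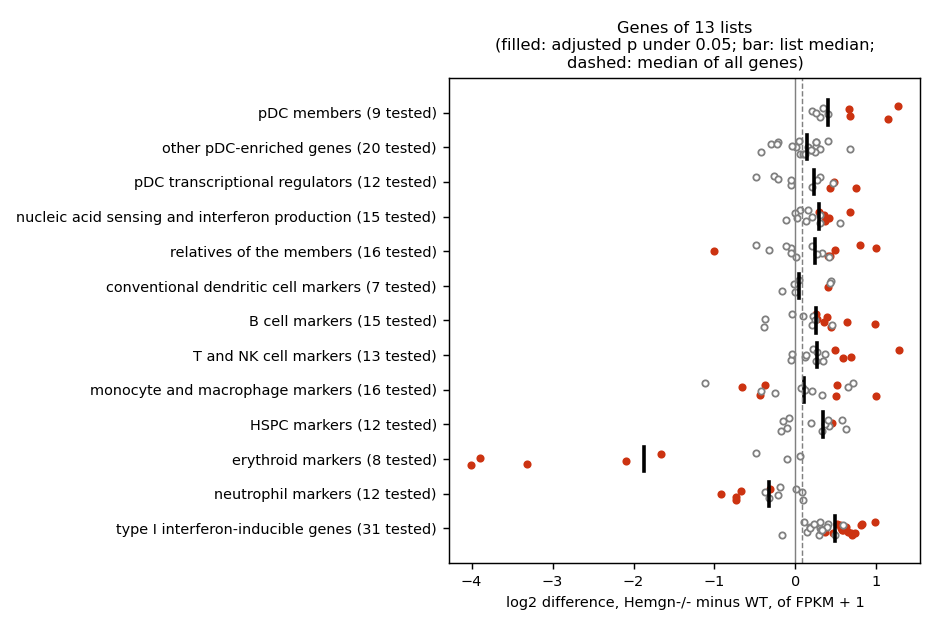
Log2 difference of FPKM + 1, Hemgn-/- minus WT, for each tested gene of 13 lists. Filled points have an adjusted p under 0.05 in limma, the black bar is the median of the list, and the dashed line is the median of all genes tested (0.087). The 9 pDC genes lie to the right of 0, and the erythroid list has the lowest median (-1.88).

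Markers of other cells moved as well, and their counts stand beside 4.37% of all genes tested called higher and 2.09% called lower. Of 15 B cell markers 7 were higher and none lower, with a median log2 difference of 0.25, 12 above 0 and 3 below. Among the higher genes, Fcer2a (CD23), of mature B cells, rose by 0.98 and Ms4a1 (CD20) by 0.64 (limma, adjusted p of 0.00014 and 0.00168). Both were called under all 15 alternative settings, while the list's count ranged from 2, without the trend, to 9. The 3 below 0 were Vpreb1, Rag1 and Ebf1, at -0.39, -0.38 and -0.04 (limma, adjusted p of 0.448, 0.209 and 0.78). Of 7 conventional dendritic cell markers tested only Ccr7 was higher, by 0.40 (limma, adjusted p = 0.0164, called under 9 of 15 alternative settings), and B cells and T cells carry it too. Zbtb46, which defines conventional dendritic cells, was at 0.131 to 0.39 FPKM. Of 13 T and NK cell markers 4 were higher and none lower, led by Cd3d at 1.28 (limma, adjusted p = 0.000409), with a summed FPKM of 282 to 290 in WT and 320 to 368 in Hemgn-/- libraries. Cd3e, another chain of the same complex, had 0.25 (limma, adjusted p = 0.471). Of 16 monocyte and macrophage markers 3 were higher and 3 lower. Their median log2 difference was 0.11, with 10 above 0 and 6 below. Their summed FPKM was 23174 to 25861 in WT and 16733 to 20849 in Hemgn-/- libraries. Most of this sum was Lyz2 alone, at 22551 to 25252 in WT and 16135 to 20204 in Hemgn-/- libraries. Ccr2, Adgre1 and Csf1r rose by 1.00, 0.51 and 0.50 (limma, adjusted p of 0.0014, 0.0343 and 0.0161). Vcam1 and C1qb, genes of resident macrophages, and Lyz2 fell by 0.66, 0.44 and 0.37 (limma, adjusted p of 0.0094, 0.0234 and 0.0454). Of these 6, Ccr2 and Vcam1 were called under all 15 alternative settings, Adgre1 under 3 and Lyz2 under 2. Of 12 neutrophil markers 5 were lower and 7 were not called. Among the uncalled, Mmp8, Mmp9 and Retnlg had log2 differences of 0.01, 0.08 and 0.10, and the other 9 of the list were below 0. Of 8 erythroid markers tested 5 were lower. Hba-a1, Hbb-bs, Alas2 and Hbb-bt had log2 differences of -4.01, -3.9, -3.32 and -2.09 (limma, adjusted p of 5e-06, 8.78e-06, 2.78e-05 and 0.000314). Each of these was called under all 15 alternative settings, though globin reads may have been split among near-identical copies. No member of the neutrophil or erythroid list was called higher. Of 12 HSPC markers tested only Cd34 was higher, by 0.45 (limma, adjusted p = 0.0427), and it was called under 4 of the 15 alternative settings, losing the call whichever library was left out. Of 31 genes inducible by type I interferon 16 were higher (8 to 20 under the alternative settings) and none lower, with a median log2 difference of 0.49, and Mx1 was at 3.46 to 6.00 FPKM in WT and 9.64 to 10.97 FPKM in Hemgn-/- libraries. No marker with a value was at 0 in all libraries. The part that a changed mixture of these cells has in the pDC gene values was not tested.

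The calls for Siglech and Spib were made under all 15 alternative settings that were run. Klk1 was called under 9 of the 15 and Pacsin1 under 5 of the 15. Every one of the 9 genes kept a positive difference in each setting in which it was tested.

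**Figure D4:**
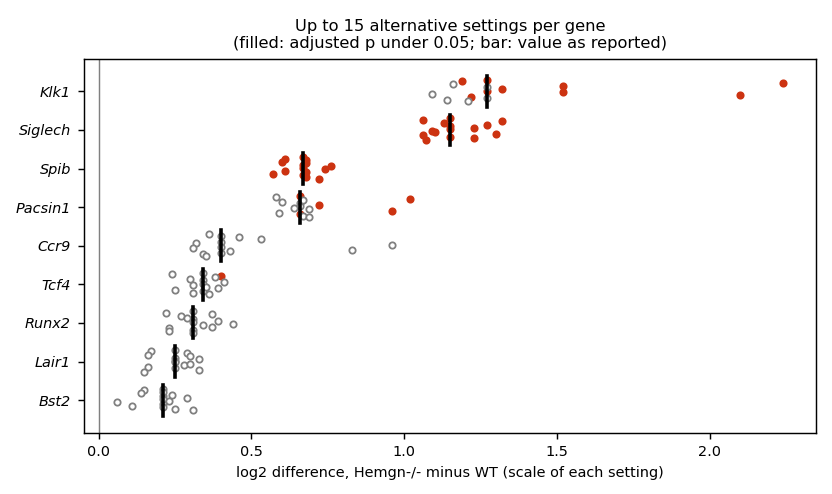
Log2 difference of each pDC gene, Hemgn-/- minus WT, under up to 15 alternative settings (points; filled where the adjusted p was under 0.05) beside the value as reported (bar). The pseudocount, scaling and voom settings have log2 scales of their own. The points of Siglech and Spib are filled throughout, those of Klk1 and Pacsin1 in part, and all points lie above 0.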

How the data were processed

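RNA of donor cells was sequenced from 3 WT and 3 Hemgn-/- libraries. The sample labels name TruSeq library kits and the series design Smart-Seq2. The authors deposited FPKM values per Ensembl gene on GRCm38, and the submitters' processing notes name Bowtie2 2.2.3, HISAT2 2.1.0, TopHat2 and HTSeq 0.6.0. Whether counting used strand is not given in the sources used here. GENCODE M21 symbols matched 24921 of 24965 genes. Values were analysed as log2(FPKM + 1), which understates the change of low genes, with a moderated linear model with trend (limma 3.58.1, R 4.3.3), two-sided, for genes above 1 FPKM in at least 1 library, and Benjamini-Hochberg adjustment over 13739 genes. The filter and the second threshold were those of the study's RNA-seq methods, which name no test there. Its general statistics section names 2-tailed Student's tests for 2 groups. Whole fragments were recovered from FPKM steps and exon lengths (95.7% of 13486 genes with at most 100 fragments per library, tolerance 0.05) for the voom alternative. Intervals are at 95%. The pDC genes and all lists were chosen with earlier results of these data known. Named were the 9 genes, up to 4 called genes per other list by size of change (8 for regulators and sensing), and preset markers and paralogs. Other settings were pseudocount, filter, scaling, trend, replicate block and leaving out each library. The method was tested on simulated data. 1 preset marker is not reported here.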

Additional observations from a re-analysis of the deposited data

How the results depend on the processing

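Of the 9 pDC genes, 4 were called higher as reported, 2 with no filter on low values, and 2 to 3 when 1 library was left out (2 without WT replicate 1 or 3 or Hemgn-/- replicate 1 or 2, and 3 without WT replicate 2 or Hemgn-/- replicate 3). Over the 12 other lists together, 43 genes were called higher as reported, 28 after median-ratio scaling, 14 in limma without the trend, and 18 to 37 with 1 library left out, lowest without Hemgn-/- replicate 3. In the same lists 14 were lower as reported and 9 with no filter. The cause of these shifts was not tested, except that more genes were tested without the filter (24965 in place of 13739). Over all genes, 600 higher and 287 lower as reported became 309 and 157 with no filter, 237 and 153 without the trend, 1062 and 238 at the same FPKM total, 347 and 384 after median-ratio scaling, 368 and 346 after quantile normalization, and 223 and 150 without Hemgn-/- replicate 3. With 1 library left out of a group of 3, the adjustment rests on fewer samples. With the replicate block, 3 of the 9 pDC genes were called (Pacsin1 had a limma adjusted p of 0.0877), and 410 genes were higher and 226 lower. Deviations of libraries with the same number correlated at -0.0428, -0.00936 and 0.0111, and those of differing number at -0.0291 to 0.0365. Whether the replicate numbers pair the samples is not given in the sources used here, and 3 libraries per group cannot settle it. Of 62 genes called as reported, from the lists and with Hemgn included, none had the opposite sign in any of 930 values under the alternatives. Only reversed signs were counted, so a difference that vanished would not show. Ngp and Lyz2, ranked 1 and 2 by mean FPKM, lost their calls under quantile normalization. Signs of other genes were not followed. The lowest levels were uneven between replicates, with a coefficient of variation of 75.8% for Klk1 in WT and of 24.3% (WT) and 31.1% (Hemgn-/-) for Ccr9.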
